A study of Mus musculus with 4 samples.

Results

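The genes described are 10 of the BCL2 family, which sets the threshold for apoptosis at the mitochondrion. They were taken by name from the gene count table (Bax, Bak1, Bok, Bbc3, Pmaip1, Bid, Bcl2l11, Bcl2, Bcl2l1 and Mcl1), and all 10 were among its 56748 genes and had enough counts to be tested. RNA-seq was performed on whole small intestine (SI) of mice at 1 day post 12 Gy total-body irradiation (TBI), given with a Cs-137 source. There were 2 libraries from wild-type mice (WT, with intact p53) and 2 from p53-/- mice, of 8 to 12 weeks of age. The p53-/- mice carry a germline deletion, so epithelial, immune and stromal cells lacked p53 alike. All 4 samples were irradiated and unirradiated SI was not analysed here, so the comparison is of genotypes after TBI and not of the response to TBI.

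In the intrinsic pathway of apoptosis, the effectors BAX and BAK, and in some settings BOK, form pores in the outer mitochondrial membrane and release cytochrome c, which activates caspases through APAF1. The anti-apoptotic proteins BCL2, BCL-xL (encoded by Bcl2l1) and MCL1 hold the effectors and their activators in check. The BH3-only proteins PUMA (Bbc3), NOXA (Pmaip1), BID and BIM (Bcl2l11) sense damage and either block the anti-apoptotic proteins or activate the effectors. Bax, Bbc3 and Pmaip1 are well-known p53 target genes, and PUMA is known for its part in the p53-dependent death of intestinal crypt cells after irradiation.

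The WT libraries, numbered 7 and 8, held 17430246 and 15005479 counts, and those of the p53-/- mice, numbered 9 and 10, held 22173164 and 19811346, of which the 10 members together took between 15956 and 19726. The unit of all levels is CPM, the counts of a gene relative to library size with TMM factors. Trp53, the deleted gene, was at 57.7 and 47.1 CPM in WT and at 19.8 and 22.5 CPM in p53-/- SI, so reads on the gene were fewer but not absent. The epithelium markers were abundant in every library, with a summed level of 30300 and 22400 CPM in WT and 20200 and 17200 CPM in p53-/- SI. Libraries 8 and 10 stood apart in markers of other tissues. Library 8 had a summed level of 4490 CPM for 6 muscle markers against 481 to 995 CPM in the other libraries. Library 10 had 491 CPM for 8 B cell markers against 1.11 to 23.3 CPM, and 4.59% of its counts on the ribosomal RNA gene Rn18s-rs5 against 0.296% to 0.863%. The summed level of 10 T cell markers was 7.61 and 14.3 CPM in WT and 70.0 and 139 CPM in p53-/- SI, and 1 of these 10 markers (Cd8b1) and 4 of the 8 B cell markers were at 0 counts in both WT libraries.

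Of the 10 members, Bax alone fell past the threshold in the p53-/- SI (adjusted p under 0.05 over 16094 genes in edgeR's quasi-likelihood test), and none rose. Over all genes tested, 0.193% were called lower and 0.298% higher. The fitted log2 fold change was below 0 for all 10 members, with a median of -0.54 against -0.01 over all genes tested. Between them the members ranged widely, from a 4.53-fold lower level of Bax to nearly equal levels of Bcl2l11 (log2 fold change -0.01). The groups did not overlap for 7 members (Bax, Bok, Bbc3, Pmaip1, Bid, Bcl2l1 and Mcl1), each with both p53-/- libraries below both WT libraries, which was also the case for 24.4% of all genes tested, while 26.4% lay above. At an unadjusted p under 0.05 there were 5 members lower (Bax, Bbc3, Bok, Pmaip1 and Bcl2l1), against 7.92% of all genes lower and 18.0% in either direction. With DESeq2 in place of edgeR, 3 members were lower (Bax, Bbc3 and Bok) and 0 higher, where 3.50% and 5.05% of all genes were called. These are bulk samples, in which fewer cells of a type and less RNA per cell cannot be told apart. All 12 epithelium markers also had a log2 fold change below 0, between -1.0 (Cdx2) and -0.06 (Sis), with a median of -0.47. Their part in the members' values was not tested, but with the libraries scaled to the summed counts of these 12 markers, a scaling chosen after the data were seen, the log2 fold change was -1.68 for Bax (adjusted p = 0.0610 in edgeR, which ends the call), -1.38 for Bbc3 and 0.01 for Mcl1.

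**Figure D1:**
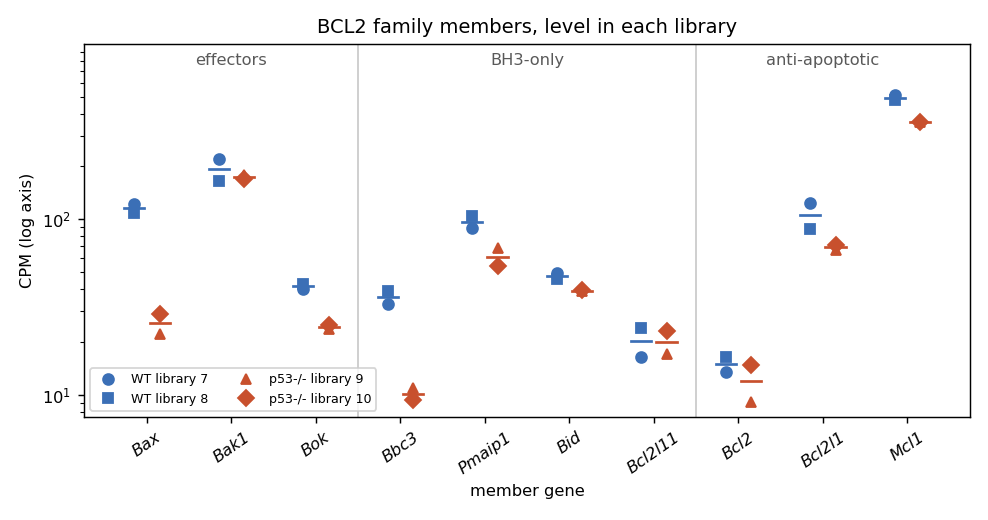
Level of each member in each library, in CPM on a log axis, with effectors, BH3-only genes and anti-apoptotic genes set apart. Points are libraries (blue WT, red p53-/-) and bars the mean of the 2 libraries of a genotype. Bax and Bbc3 show the widest gaps, and Bak1, Bcl2l11 and Bcl2 overlap between genotypes.

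Among the effectors, Bax was at 123 and 108 CPM in WT and at 22.2 and 28.8 CPM in p53-/- SI. The lower WT value was several times the higher p53-/- value. The fitted log2 fold change was -2.18 (95% interval -2.68 to -1.68, adjusted p = 0.0296, edgeR), which left the p53-/- SI at 22.1% of the WT mean. Of the exon bases of Bax, 12.2% are shared with Gm45808 on the same strand, and reads there may not have been counted. This call was lost when either p53-/- library was left out, with an adjusted p of 0.0754 without library 9 and 0.198 without library 10, where the log2 fold change was -2.01 and -2.32. Bak1, the partner of Bax in pore formation, was at 222 and 165 CPM in WT and at 179 and 170 CPM in p53-/- SI. Its groups overlapped, and the log2 fold change was -0.15 with an interval from -0.68 to 0.38, which does not reach the interval of Bax. Separate entries of Ggnbp1 on the opposite strand share 7.4% and 18.2% of the exon bases of Bak1. The strand setting of the counting is not given in the sources used here. Bok, a more distant relative of Bax and Bak1, was at 40.2 and 42.7 CPM in WT and at 23.8 and 24.9 CPM in p53-/- SI. Its libraries agreed closely within each genotype (SD 1.79 and 0.824 CPM, n = 2) and did not overlap between them. The log2 fold change of Bok was -0.77 (95% interval -1.18 to -0.36) with an adjusted p of 0.113 in edgeR and 0.0262 in DESeq2.

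Among the BH3-only genes, Bbc3 was at 33.0 and 39.1 CPM in WT and at 10.9 and 9.35 CPM in p53-/- SI. The gap between genotypes was several times the spread within them, 36.1 ± 4.25 against 10.1 ± 1.10 CPM (SD, n = 2). The log2 fold change was -1.83 (95% interval -2.38 to -1.28), and the adjusted p of 0.0501 in edgeR missed the threshold, while it was 6.61e-08 in DESeq2. With a library left out the edgeR value was 0.0194 (library 7), 0.0230 (library 8), 0.109 (library 9) or 0.398 (library 10), and it was 0.116 with the epithelium scaling. Pmaip1, whose product NOXA binds MCL1, was at 88.6 and 105 CPM in WT and at 68.2 and 54.4 CPM in p53-/- SI. All p53-/- values of Pmaip1 were below the WT values, and their mean was 63.3% of the WT mean (log2 fold change -0.66, 95% interval -1.14 to -0.18, adjusted p = 0.177 in edgeR). Bid, whose product is cleaved by caspase-8 and so ties death receptors to the mitochondrion, was at 49.4 and 45.9 CPM in WT and at 39.0 and 39.5 CPM in p53-/- SI. The difference was small beside that of Bbc3, with a log2 fold change of -0.28 (95% interval -0.65 to 0.09), and 17.7% of the exon bases of Bid are shared with Bcl2l13 on the opposite strand. Bcl2l11, which encodes the BIM protein that removes lymphocytes after growth factor loss, was at 16.5 and 24.1 CPM in WT and at 17.0 and 23.2 CPM in p53-/- SI. Its libraries varied as much within each genotype as between them, and the log2 fold change was -0.01 with an interval from -0.75 to 0.72. Its sign turned under several other settings, so no direction is given.

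**Figure D2:**
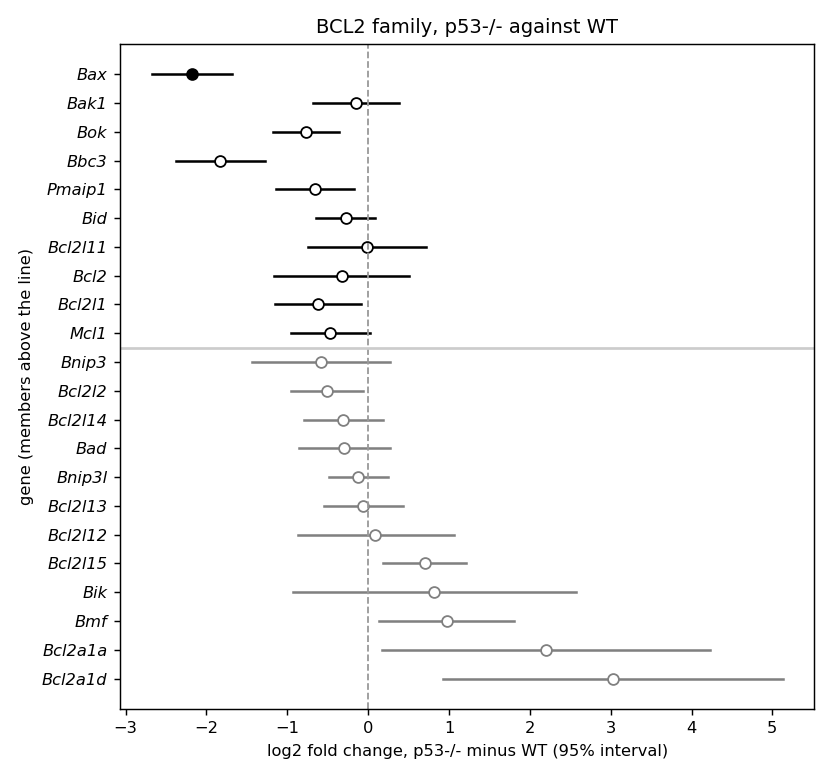
Log2 fold change (p53-/- minus WT) of the 10 members in black and of 12 other BCL2 family genes in grey, with 95% intervals from edgeR's quasi-likelihood fit. The filled point (Bax) passed the threshold and open points did not. Bcl2a1b, with at most 2 counts in a WT library, is left out.

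The starts of Bax and Bbc3 are shown because these genes had the largest differences among the members and because p53 binds DNA at a known element, made of 2 repeats of 10 bases. In GENCODE M21 (GRCm38), Bax lies on the minus strand of chr7:45461697-45466898 and Bbc3 on the plus strand of chr7:16308393-16318205. The 250 bases before the RefSeq start (GRCm38.p6, 5′ to 3′ on the strand of the gene) are at chr7:45466899-45467148 for Bax, just outside that gene model. For Bbc3 they are at chr7:16309333-16309582, inside that gene model. RefSeq lists 3 starts for Bbc3, and the one shown was chosen because its window held a match. Capitals mark the closest match to the p53 element.
Bax: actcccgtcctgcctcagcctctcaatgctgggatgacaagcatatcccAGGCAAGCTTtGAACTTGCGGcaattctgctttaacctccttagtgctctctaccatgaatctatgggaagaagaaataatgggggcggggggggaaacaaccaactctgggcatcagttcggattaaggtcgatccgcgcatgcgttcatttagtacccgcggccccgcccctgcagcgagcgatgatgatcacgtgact
Bbc3: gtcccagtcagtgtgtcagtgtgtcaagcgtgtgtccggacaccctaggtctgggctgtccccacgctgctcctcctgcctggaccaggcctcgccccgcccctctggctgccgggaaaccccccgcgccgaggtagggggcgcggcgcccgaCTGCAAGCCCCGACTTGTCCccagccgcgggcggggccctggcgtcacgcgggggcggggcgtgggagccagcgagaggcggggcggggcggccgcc
A match was counted where both repeats held an intact core (CNNG, with A or T at each N), stood 0 or 1 base apart and differed from the element at no more than 3 of the 12 other positions, a limit set after these sequences were seen. The element reads alike on both strands. Bax had 2 differences and a spacer of 1 base, 201 to 181 bases before its start, and Bbc3 had 3 differences and no spacer, 97 to 78 bases before its start. Of the 9 members with a window in the RefSeq table (250 bases before to 50 after each start, without Pmaip1), 2 held a match, and these were Bax, which has 1 window, and Bbc3, with a match in 1 of its 3 windows. Of all 27025 genes with a window, 1.23% held one, as did 3 of 15 other p53 targets (Aen, Gtse1 and Cdkn1a) and 0 of 12 other BCL2 family genes. As the limit was set on the sequences of Bax and Bbc3, their matches are no independent count. A match describes letters and is not evidence of binding, and the other members may have elements outside these windows.

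Among the anti-apoptotic genes, Mcl1 was by far the most abundant, at 510 and 477 CPM in WT and at 357 and 358 CPM in p53-/- SI. Its product is short-lived and is needed for the survival of many cell types, the intestinal epithelium among them. The genotypes did not overlap, the p53-/- mean was 72.4% of the WT mean, and the log2 fold change of -0.47 had an interval from -0.95 to 0.02 (adjusted p = 0.295 in edgeR). Bcl2l1 was at 124 and 88.2 CPM in WT and at 67.1 and 71.1 CPM in p53-/- SI. The WT libraries were farther apart than the p53-/- libraries, and the log2 fold change was -0.62 (95% interval -1.15 to -0.09, adjusted p = 0.225 in edgeR). Counts per gene do not separate its long anti-apoptotic form from its short pro-apoptotic form. Bcl2 itself was the least expressed member in WT by CPM, at 13.4 and 16.5 CPM, and was at 9.12 and 14.7 CPM in p53-/- SI. Its groups overlapped (log2 fold change -0.33, 95% interval -1.16 to 0.50). Bcl2 is abundant in lymphocytes, and library 10, which had the higher Bcl2 value of the p53-/- libraries, was also the library with 491 CPM of B cell markers. Without library 10 the log2 fold change of Bcl2 was -0.66, and the part of B cell RNA in its level was not tested.

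Levels of different genes were compared as CPM per kb of exon. On this scale the order in WT SI was Mcl1 (144 ± 6.72 CPM per kb, SD, n = 2), Bak1 (80.5 ± 16.6), Bax (73.3 ± 7.13), Pmaip1 (35.4 ± 4.20), Bcl2l1 (23.2 ± 5.57), Bok (22.5 ± 0.972), Bbc3 (17.0 ± 2.0), Bid (13.4 ± 0.687), Bcl2l11 (2.53 ± 0.665) and Bcl2 (1.63 ± 0.236). Bak1 and Bax were not separated by their spread in WT, nor were Bcl2l1 and Bok. In the p53-/- SI, Bax was at 16.2 ± 2.95 CPM per kb and thus beside Bcl2l1 (15.1 ± 0.620) in place of Bak1 (72.5 ± 2.82), and Bbc3 was at 4.77 ± 0.520, below Bid (11.1 ± 0.107). Bax made up 18.0% and 17.3% of the summed level per length of the 10 members in WT and 5.31% and 6.95% of it in p53-/- SI. The share of Mcl1 was 34.4% and 35.5% in WT and 39.5% and 39.9% in p53-/- SI. Exons of all isoforms were counted in the length, so the levels of genes with long alternative exons, such as Bcl2 (9157 bases), Bcl2l11 (8029 bases) and Bcl2l1 (4586 bases), may be understated. By CPM alone, Bax was in place 3 of the 10 in WT and in place 6 in p53-/- SI, and Bcl2l1 was in places 4 and 3.

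**Figure D3:**
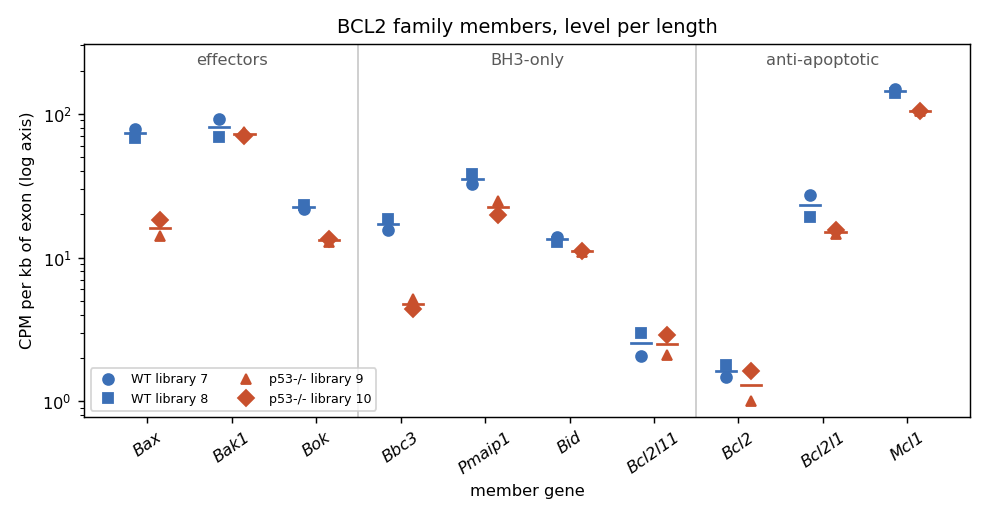
Level of each member per length, in CPM per kb of exon on a log axis, by library (blue WT, red p53-/-), with bars at the mean of the 2 libraries. Bax lies beside Bak1 in WT (73.3 and 80.5 CPM per kb) and beside Bcl2l1 in p53-/- SI (16.2 and 15.1 CPM per kb).

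Ratios between members within a library do not depend on how libraries are scaled to each other. The ratio of Bax to Bak1, per length, was 0.849 and 0.992 in WT and 0.189 and 0.259 in p53-/- SI. Bax was thus as abundant as Bak1 within the spread in WT and far below it in p53-/- SI. The ratio of Bax to Bcl2l1 was 2.89 and 3.55 in WT and 0.962 and 1.18 in p53-/- SI, and that of Bax to Mcl1 was 0.525 and 0.488 against 0.135 and 0.174. Which of 2 genes is higher depends on the exon lengths used (1576 bases for Bax and 4586 for Bcl2l1, all isoforms together), while the gap between genotypes in a ratio does not. The ratio of Bbc3 to Mcl1 was 0.104 and 0.132 in WT and 0.0492 and 0.0420 in p53-/- SI, and that of Bbc3 to Pmaip1, both p53 targets, was 0.480 and 0.479 against 0.206 and 0.221. The ratio of Pmaip1 to Mcl1 overlapped between genotypes, at 0.217 and 0.275 in WT and 0.239 and 0.190 in p53-/- SI, as did that of Bcl2l1 to Mcl1. The ratio of Bak1 to Mcl1 lay on the other side, at 0.618 and 0.492 in WT and at 0.712 and 0.673 in p53-/- SI. Summed over roles, the 7 pro-apoptotic members had 1.44 and 1.45 times the level per length of the 3 anti-apoptotic members in WT and 1.2 and 1.15 times in p53-/- SI. Without Bax, a sum made after the values were seen, the other 6 had 1.0 and 1.02 times in WT and 1.09 and 1.0 times in p53-/- SI, so the lower ratio rested on Bax. The share of the 4 BH3-only members in the summed level of all members overlapped, at 14.7% and 18.5% in WT and 16.3% and 14.6% in p53-/- SI. With 2 libraries a genotype, an exact permutation test of a single ratio cannot give a p below 0.333, so these ratios are given as values without a test.

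**Figure D4:**
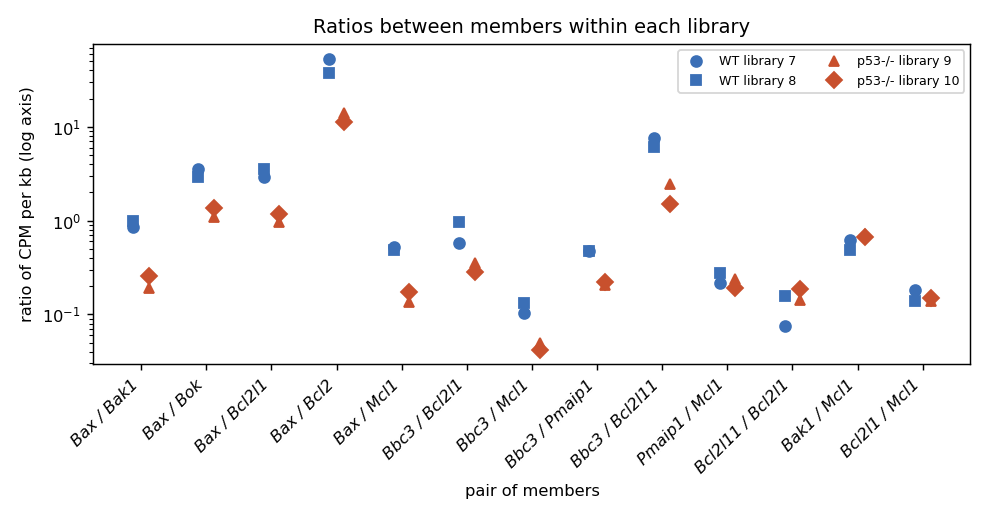
Ratios of CPM per kb between pairs of members within each library, on a log axis (blue WT, red p53-/-). All ratios with Bax or Bbc3 on top are lower in both p53-/- libraries, by 2.24 to 4.11 times between means, while those of Pmaip1 to Mcl1, Bcl2l11 to Bcl2l1 and Bcl2l1 to Mcl1 overlap and that of Bak1 to Mcl1 is higher in both p53-/- libraries.

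Of 15 other genes of the family, 13 had enough counts to be tested, and in edgeR 0 passed the threshold. An unadjusted p under 0.05 was found for 6 of the 13, 5 of them higher and 1 lower. Of all 16094 genes tested, 1617 were higher and 1275 lower at that limit. In DESeq2, 2 of the 13 were higher (Bcl2a1d and Bcl2a1b). The median log2 fold change of the 13 was 0.09. The Bcl2a1 genes encode A1, an anti-apoptotic protein of blood cells, and are near-identical copies among which reads could have been split. Of the exon bases of Bcl2a1b, 49.1% are shared with Gm29094 on the same strand, and reads there may not have been counted. Bcl2a1d had 14 and 7 counts in WT and 50 and 175 in p53-/- SI, Bcl2a1a had 3 and 10 against 28 and 53, and Bcl2a1b had 2 and 0 against 22 and 58, which is at least 10.1-fold higher with 3 counts set in each WT library, a bound for counting error only. Each was highest in library 10, and the T and B cell markers given above were highest there too. The part of lymphocyte RNA in these values was not tested. Bmf, a BH3-only gene, was at 6.13 and 9.86 CPM in WT and at 14.8 and 16.5 CPM in p53-/- SI (log2 fold change 0.97, 95% interval 0.13 to 1.81, adjusted p = 0.228 in edgeR). Bcl2l15, a weakly pro-apoptotic gene of the gut, was at 18.0 and 19.3 CPM in WT and at 33.2 and 27.3 CPM in p53-/- SI (log2 fold change 0.70, adjusted p = 0.182 in edgeR). Bmf and Bcl2l15 thus lay above WT in both p53-/- libraries, as did 26.4% of all genes tested. Of the 13 other family genes tested, 6 lay above WT in this way and 5 below. The BH3-only gene Bad was among those below, at 26.7 and 20.5 CPM in WT and at 19.6 and 18.8 CPM in p53-/- SI. Bcl2l2, which encodes the anti-apoptotic BCL-W, was at 57.1 and 48.1 CPM in WT and at 40.0 and 33.9 CPM in p53-/- SI (log2 fold change -0.51, adjusted p = 0.232 in edgeR). Bad had a log2 fold change of -0.30 and Bik, with 5 to 22 counts, one of 0.82, both with intervals that include 0. Bcl2l12, Bcl2l13, Bcl2l14 and the mitophagy receptors Bnip3 and Bnip3l had log2 fold changes between -0.58 and 0.09, with intervals that include 0. Bcl2l10 had 3, 0, 0 and 1 counts in libraries 7 to 10 and Hrk had 0 in each, which at this depth allows up to 0.13 to 0.19 CPM, and neither was tested.

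Downstream of the members, 0 of 14 apoptosome and caspase genes passed the threshold in edgeR, and 2 were higher in DESeq2. At an unadjusted p under 0.05, 3 of the 14 were higher and 0 lower, against 1617 and 1275 of all 16094 genes tested. The median log2 fold change of the 14 was 0.17. Apaf1, which binds cytochrome c, was at 90.4 and 80.0 CPM in WT and at 117 and 95.9 CPM in p53-/- SI (log2 fold change 0.32, adjusted p = 0.424 in edgeR), and is named after its values were seen.

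**Figure D5:**
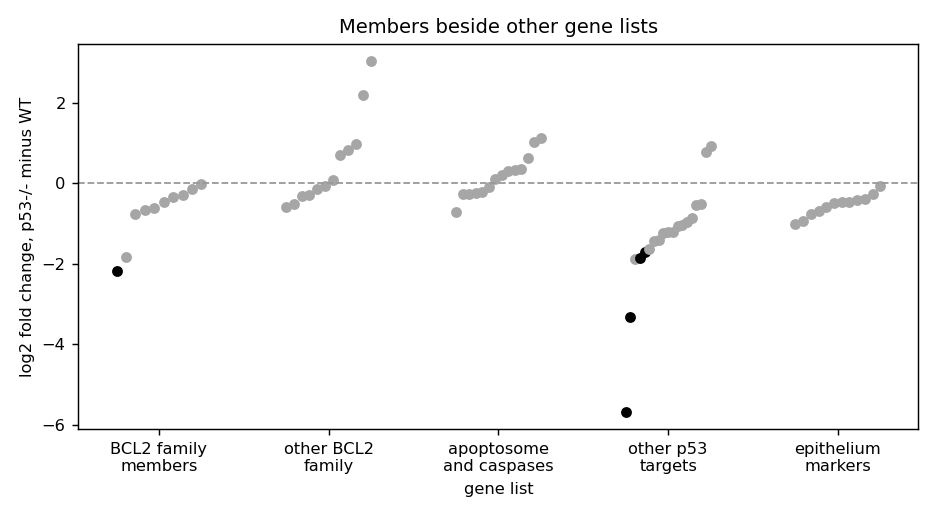
Log2 fold change (p53-/- minus WT) of the 10 members beside 12 other BCL2 family genes, 14 apoptosome and caspase genes, 19 other p53 targets and 12 epithelium markers. Each point is a gene, black where it passed the threshold in edgeR's test. Bcl2a1b and Eda2r, at 3 counts or fewer in both libraries of a genotype, are left out.

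Of 20 other p53 targets, 5 fell past the threshold in edgeR (Phlda3, Ccng1, Eda2r, Zmat3 and Sesn2), 0 rose, and the median log2 fold change was -1.23. At an unadjusted p under 0.05 in edgeR, 15 were lower and 1 higher, and DESeq2 called 13 lower and 0 higher. Both p53-/- libraries lay below both WT libraries for 18 of the 20 and above them for 2. The shares of all genes tested that were lower by these 4 measures were 0.193%, 7.92%, 3.50% and 24.4%, in the same order. Phlda3, which restrains AKT signalling, was at 87.3 and 91.9 CPM in WT and at 1.93 and 1.54 CPM in p53-/- SI. Ccng1, which encodes cyclin G1, was at 482 and 444 CPM in WT and at 49.0 and 43.6 CPM in p53-/- SI, at 9.99% of the WT mean. The level that remained in p53-/- SI was 22.1% for Bax and 28.1% for Bbc3, and for Zmat3 and Sesn2 it was 30.9% and 27.5%. For Phlda3 it was 1.94%, and whether these shares differ was not tested. Of 5 plasma cell markers, 4 had a log2 fold change above 0 and 1 below. Derl3 alone passed the threshold in edgeR, from 1.49 and 1.62 to 13.8 and 14.8 CPM (adjusted p = 0.0424). Sdc1 was on the other side, at 414 and 308 CPM in WT and at 229 and 199 CPM in p53-/- SI. Its adjusted p was 0.191 in edgeR and 0.0267 in DESeq2.

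Patterns over the 4 libraries were compared by the root mean square difference of centred log2 CPM, after 0.5 CPM was added to each value. Nearest to the pattern of Bax were Angptl4 (0.0739), Ms4a10 (0.0992), Psapl1 (0.104), Sgk1 (0.139) and Tmc7 (0.182). Angptl4, which encodes a secreted inhibitor of lipoprotein lipase, was at 128 and 124 CPM in WT and at 22.4 and 30.9 CPM in p53-/- SI, close to the CPM of Bax in each library. Psapl1 was at 2.17 and 1.95 CPM in WT and at most 0.0497 CPM in p53-/- SI, below the level of 3 counts. Nearest to Bbc3 were Mup-ps23 (0.0613), Cyp4f16 (0.0724), Tnfrsf10b (0.0802), Retn (0.101) and Aen (0.101). Of these, Tnfrsf10b and Aen are p53 targets with a part in apoptosis, a death receptor and a nuclease. Tnfrsf10b was at 25.2 and 27.1 CPM in WT and at 7.19 and 7.01 CPM in p53-/- SI (adjusted p = 0.0510 in edgeR). Mup-ps23 and Retn were under 1.5 CPM in every library. The added 0.5 CPM narrows differences at such low levels, so the nearness of Psapl1, Mup-ps23 and Retn depends on it.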

How the data were processed

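Poly-A RNA of irradiated SI was sequenced in 2 WT and 2 p53-/- libraries. The deposited values are raw counts per gene, made by the authors without normalization. The submitters' processing notes name fastp, HISAT2 2.0.5, featureCounts 1.5.0-p3 and DESeq2 1.20.0, while the genome build and the strand setting are not given in the sources used here, so reads of paralogs and overlapping genes may have been split or lost. Column names carry a genotype and a library number (7 to 10) but no replicate number of the labels. Replicate libraries differed by more than sampling noise (chi-square per degree of freedom 48.0 and 69.5). The study's methods describe data points as biological replicates and the labels do not say so. If they were not separate mice, the p-values do not measure the spread between mice.

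Counts were scaled by TMM, filtered by filterByExpr (16094 genes kept) and tested two-sided with the quasi-likelihood test of edgeR 4.0.16 in R 4.3.3, with Benjamini-Hochberg adjustment over all genes tested. Standard errors and 95% intervals came from the same fit (prior degrees of freedom 3.45). DESeq2 1.42.0, other scalings, filters and gene sets, and each library left out were alternatives. On simulated counts for this comparison (16094 genes), edgeR recovered 12 of 67 genes changed by 1 on the log2 scale, 34 of 67 changed by 2 and 54 of 66 changed by 3, with 3 false calls. DESeq2 recovered 11 of 67, 37 of 67 and 52 of 66, with 15 false calls. The simulated spread followed the trend over all genes and left out the spread particular to each gene. The intervals include the spread between libraries, while floors (3 counts, 0.13 to 0.19 CPM) cover counting error only. Exon lengths and positions were taken from GENCODE M21, which holds 91.9% of the deposited identifiers, and promoter windows from RefSeq (GRCm38.p6). Members and gene lists were chosen with earlier results of these data known. By the rule for named genes, these are the 10 members, other family genes with over 3 counts in a library, genes of the other lists past the threshold, Trp53, and the 5 genes nearest in pattern to Bax and to Bbc3. Bcl2l10, Hrk and the markers other than Derl3 fall outside this rule, as do further genes of the other lists. The latter are Apaf1, Huwe1, Vdac2, Foxo3, Ddit3, Tnfsf10, Fas, Cdkn1a and Gtse1. All of these were named after their values were seen. March5 was not found in the table by this symbol and was not counted. The values of 1 gene of the lists are not reported here.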

Additional observations from a re-analysis of the deposited data

How the results depend on the processing

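The number of members past the threshold was 1 of 10 (Bax) and remained so with RLE or upper-quartile factors, library size only, at least 10 counts in every library and the 50 most abundant genes left out. It was 3 with DESeq2 and with edgeR's likelihood ratio test, 4 with no filter on low counts, 2 without antigen receptor gene segments and 0 with libraries scaled to the 12 epithelium markers (adjusted p of Bax 0.0610), and all calls were lower. With a library left out it lay between 0 and 2. Other family genes past the threshold numbered 0, and 2 with DESeq2, the likelihood ratio test and no filter. Over all genes, the 48 higher and 31 lower calls became 26 and 20 when scaled by library size only, 29 and 20 by upper-quartile factors, 813 and 563 with DESeq2, 833 and 462 with the likelihood ratio test, 1433 and 761 with no filter, 24 and 18 with at least 10 counts in every library, which tests fewer genes, and 100 and 13 with the epithelium scaling. With a library left out they lay between 0 and 680 higher and between 0 and 344 lower. For the other settings the cause was not tested.

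Bax, Bbc3, Bok, Pmaip1 and Bcl2l1 kept a log2 fold change below 0 under every setting, between -2.32 and -1.68 for Bax and between -1.95 and -1.38 for Bbc3. The epithelium scaling moved the median of all genes from -0.01 to 0.46 and turned the sign of Bak1 (0.35), Bid (0.20), Bcl2l11 (0.44), Bcl2 (0.15), Mcl1 (0.01), Bad (0.20), Bcl2l13 (0.43), Bcl2l14 (0.17) and Bnip3l (0.35). Bcl2l11 also turned with upper-quartile factors (0.03), library size only (0.04), no filter (0.02), at least 10 counts in every library (0.05) and the 50 most abundant genes left out (0.02), and Bcl2l13 with library size only and at least 10 counts in every library (0.02 in each). With a library left out, Bak1 lay between -0.35 and 0.09, Bcl2l11 between -0.25 and 0.27, Bcl2l13 between -0.24 and 0.15 (0.11 without library 10) and Bcl2l12 between -0.12 and 0.32 (-0.05 without library 8). No paired analysis was possible because the columns carry no replicate number of the labels. The spread comes from 2 libraries a genotype, and at this size changes of 1 on the log2 scale were mostly missed in simulated data.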

Other observations

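Genes outside the family that act on its proteins or its transcription were also measured. Of 10 tested genes for mitochondrial partners and for the turnover of family proteins, 0 passed the threshold in edgeR, 1 had an unadjusted p under 0.05 and 0 passed in DESeq2. Huwe1, a ubiquitin ligase of MCL1, was at 102 and 124 CPM in WT and at 158 and 154 CPM in p53-/- SI (log2 fold change 0.47, adjusted p = 0.263 in edgeR). Vdac2, a mitochondrial channel that holds BAK, was at 659 and 447 CPM in WT and at 393 and 402 CPM in p53-/- SI (log2 fold change -0.48, adjusted p = 0.411 in edgeR). Among 10 tested transcription factors that act on family genes, 0 passed the threshold in edgeR, 3 had an unadjusted p under 0.05 (Trp53 itself, Foxo3 and Ddit3) and 2 were lower in DESeq2 (Trp53 and Foxo3). Foxo3, which can drive Bcl2l11 and Bbc3, was at 200 and 183 CPM in WT and at 115 and 83.7 CPM in p53-/- SI (log2 fold change -0.95, adjusted p = 0.126 in edgeR). These genes were named after their values were seen.

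In the death receptor pathway, which meets the family at Bid, 0 of 12 tested genes passed the threshold in edgeR, 4 had an unadjusted p under 0.05, and DESeq2 called 1 lower and 2 higher. The values went to opposite sides for a receptor and its ligand. Tnfsf10, which encodes TRAIL, was at 26.4 and 16.8 CPM in WT and at 105 and 76.7 CPM in p53-/- SI (log2 fold change 2.07, adjusted p = 0.0578 in edgeR), while its receptor Tnfrsf10b had a log2 fold change of -1.88 (adjusted p = 0.0510 in edgeR). Fas, a death receptor and p53 target, was at 12.4 and 15.2 CPM in WT and at 21.1 and 31.2 CPM in p53-/- SI (log2 fold change 0.92, adjusted p = 0.192 in edgeR), on the other side from Bax and Bbc3. The crypt stem cell gene Olfm4 was at 47.6 and 16.0 CPM in WT and at 473 and 525 CPM in p53-/- SI (adjusted p = 0.0587 in edgeR), and Lgr5 at 9.22 and 8.43 against 16.2 and 11.9 CPM. Ascl2, also a stem cell gene, was on the other side, at 12.0 and 9.28 against 7.23 and 4.82 CPM (adjusted p = 0.320 in edgeR). Of the 7 crypt stem and Paneth cell markers, 6 had a log2 fold change above 0 and 1 below, and 0 passed the threshold in edgeR, with 2 at an unadjusted p under 0.05 and 2 higher in DESeq2. The part of crypt cells in the levels of Bax and Bbc3 was not tested.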
